A study of Mus musculus with 12 samples.

Results

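The genes that govern entry into the cell cycle at G1 were followed as a list of 9, the D-type cyclins Ccnd1, Ccnd2, and Ccnd3, the E-type cyclins Ccne1 and Ccne2, and the cyclin-dependent kinase (CDK) inhibitors Cdkn2a, Cdkn2b, Cdkn2c, and Cdkn1b. They were chosen by symbol, without a threshold on any measured value, among the 40551 mouse Ensembl genes counted in 12 RNA-seq libraries of whole liver. All 9 matched 1 identifier each. Of these, 8 were among the 15070 genes kept by the filter on low counts, and Cdkn2a was not.

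D-type cyclins are made in response to growth signals and activate CDK4 and CDK6, which phosphorylate the retinoblastoma family of pocket proteins and release E2F transcription factors. E-type cyclins, themselves E2F targets, then activate CDK2 and drive the step into S phase. The INK4 inhibitors (Cdkn2a, Cdkn2b, and Cdkn2c encode p16INK4A, p15INK4B, and p18INK4C) bind CDK4 and CDK6, whereas p27KIP1, the product of Cdkn1b, binds cyclin-CDK2 complexes. In the adult liver most hepatocytes rest outside the cycle, and Ccnd1 is known as the cyclin that rises when they re-enter it.

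Each of 4 genotypes gave 3 libraries. Mcl1Δhep livers (labelled Mcl1 KO) came from mice with floxed Mcl1 alleles and an albumin promoter-driven Cre transgene (Alb-Cre), which deletes the antiapoptotic gene Mcl1 in hepatocytes and leaves it in the other cells of the organ. Mcl1Δhep Sting1-/- livers (labelled Mcl1 Sting1 DKO) carried in addition a knockout of Sting1, the adaptor of cytosolic DNA sensing, and Sting1-/- livers (labelled Sting1 KO) carried the Sting1 knockout alone. Wild-type (WT) livers were the controls. The WT and Mcl1Δhep mice were 2 months old, and the ages behind the other libraries, and whether control mice carried Cre or floxed alleles, are not given in the sources used here. The labels number the samples without naming animals, so p-values measure the spread between these samples. Between 28826367 and 45266387 counts fell on genes per library. Mcl1 lay at 18.1 to 34.0 CPM (counts of a gene relative to its library's total, scaled with TMM factors) in the 6 libraries labelled as deleted and at 77.0 to 103.8 in the other 6. The Sting1 transcript was lower in Mcl1Δhep Sting1-/- livers (1.90 to 2.53 CPM) than in Mcl1Δhep livers (3.67 to 5.997) without overlap, whereas Sting1-/- livers (1.16 to 2.70) and WT livers (2.11 to 2.53) overlapped. All 7 hepatocyte markers examined, among them Alb and Ttr, were detected in every group.

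Some libraries stood apart in ways that the genotypes do not define. WT replicates 2 and 3 and Mcl1Δhep Sting1-/- replicate 1 held transcripts of the Y-linked genes Ddx3y, Uty, Kdm5d, and Eif2s3y, and the other 9 libraries did not. Xist, a transcript of female cells, lay at 0.030 to 0.033 CPM in the libraries with Y-linked transcripts and at 41.9 to 74.7 in the other 9. By these transcripts the former read as male and the latter, with all Mcl1Δhep and Sting1-/- libraries, as female. The study used both sexes, and the labels give none. Small structured RNAs took 2.56 and 1.43% of the counts in Mcl1Δhep replicates 2 and 3, against 0.298% in replicate 1 and 0.179 to 0.924% in the other 9 libraries. Mcl1Δhep replicate 3 also held skeletal muscle transcripts (1061 CPM summed over 5 markers, against at most 5.81 in every library of the other genotypes). For several results that moved with these libraries, values without them are also given.

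In Mcl1Δhep livers, 4 of the 8 tested genes rose against WT livers, namely Ccnd1, Ccne1, Ccne2, and Cdkn2c, and 0 fell. The rise was 4.01-fold for Ccnd1, 3.38-fold for Ccne1, 2.94-fold for Ccne2, and 2.60-fold for Cdkn2c. Genes were called at an adjusted p under 0.05 from edgeR's quasi-likelihood test with Benjamini-Hochberg adjustment over all tested genes, at which 20.2% of the tested genes were called in this comparison. These are amounts of RNA in whole liver, in which fewer cells of a type and less RNA per cell cannot be told apart. The plot of levels by library shows all 9 genes.

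**Figure D1:**
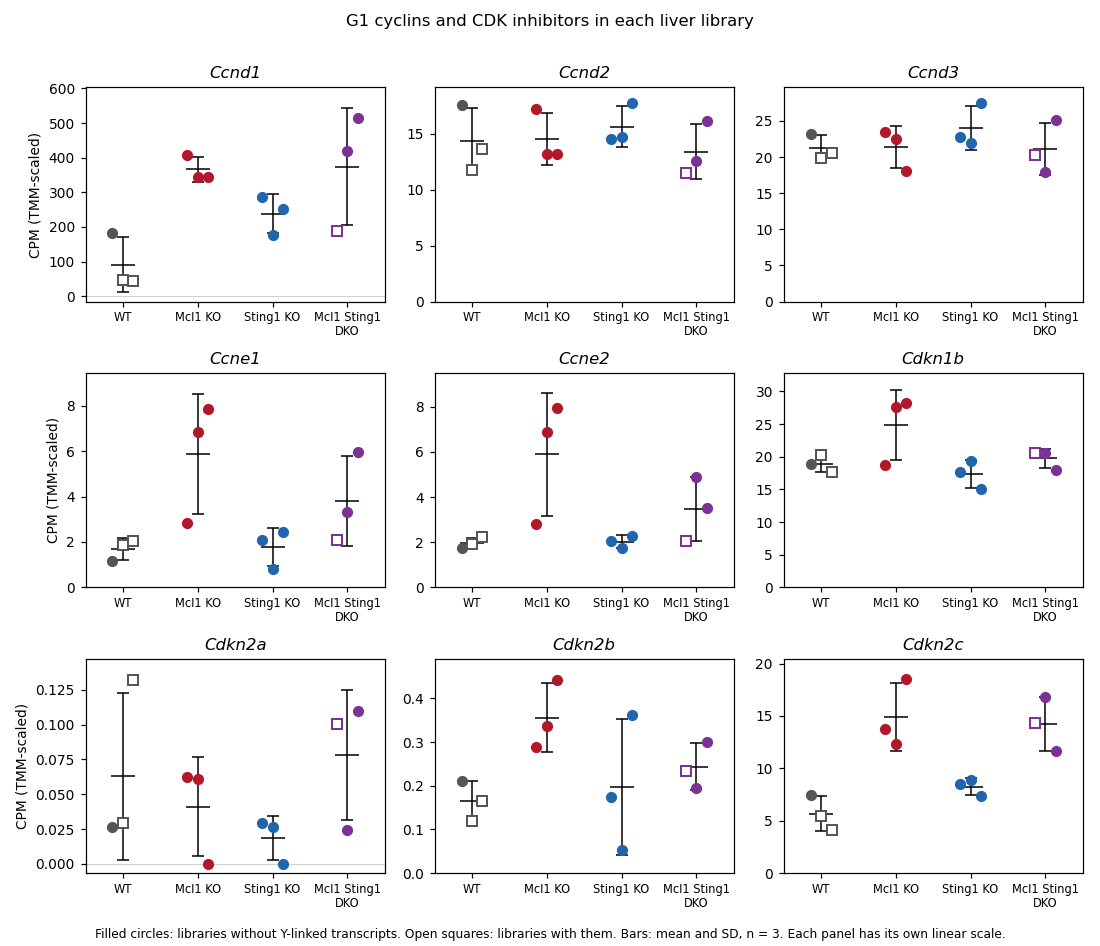
Levels of the 9 genes in TMM-scaled CPM (linear y axes, 1 per gene) by genotype, with 1 point per library and the mean ± SD of 3 libraries. Mcl1Δhep libraries (red) lay above all WT libraries (gray) for Ccnd1, Ccne1, Ccne2, Cdkn2b, and Cdkn2c, and the 3 libraries with Y-linked transcripts (open squares) were the lowest Ccnd1 libraries of their genotypes.

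In TPM, which divides counts by a gene's summed exon length and scales each library to 1 total, Ccnd1 was the most abundant of the 9, with a mean of 201 TPM over the 12 libraries. Cdkn1b followed at 15.8 TPM, Ccnd3 at 8.47, Cdkn2c at 6.09, Ccnd2 at 5.505, Ccne1 at 3.15, and Ccne2 at 2.08. Cdkn2b and Cdkn2a stood at the low end, with 0.312 and 0.155 TPM. Within the D-type cyclins, Ccnd1 made up 89.8, 74.1, and 71.2% of the TPM in the 3 WT libraries and 94.96 to 95.5% in Mcl1Δhep livers. In Sting1-/- livers this share was 90.4 to 93.7%, and in Mcl1Δhep Sting1-/- livers it was 91.99 to 96.4%. The 2 lowest shares belonged to the WT libraries with Y-linked transcripts, and all 10 other libraries were at 89.8% or above.

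**Figure D2:**
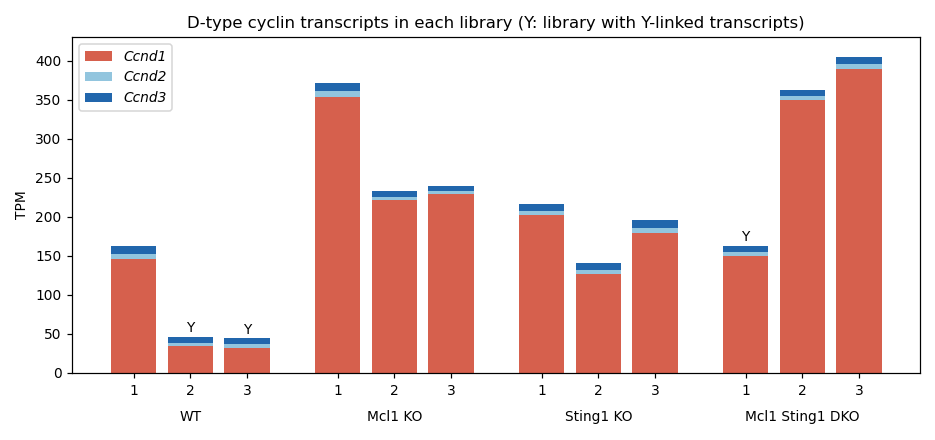
TPM of Ccnd1, Ccnd2, and Ccnd3 stacked for each library (x axis, replicates 1 to 3 of each genotype), with a Y above libraries that held Y-linked transcripts. The sum ran from 44.4 TPM in WT replicate 3 to 405 TPM in Mcl1Δhep Sting1-/- replicate 3, and nearly all of its variation was Ccnd1.

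Ccnd1 (ENSMUSG00000070348, GRCm39 chr7:144483668-144493662, minus strand) encodes cyclin D1. It measured 183.8, 46.6, and 43.3 CPM in the WT libraries and 408.5, 345.2, and 343.7 CPM in the Mcl1Δhep libraries. All 3 Mcl1Δhep libraries thus lay above all 3 WT libraries. The groups did not overlap, in either direction, for 33.3% of all tested genes in this comparison. The log2 fold change was 2.002 (standard error 0.52, 95% interval 0.86 to 3.14, adjusted p = 0.0222). Sting1-/- libraries measured 285.4, 176.0, and 252.3 CPM, and Mcl1Δhep Sting1-/- libraries measured 187.7, 418.3, and 515.1. The 2 groups without Sting1 overlapped, with a log2 fold change of 0.65 (interval -0.45 to 1.76, adjusted p = 0.724). Of the exon bases of Ccnd1, 48.4% are shared with LTO1 on the opposite strand, and whether counting used strand is not given in the sources used here. LTO1 itself had 232 to 438 counts per library against 1312 to 19748 for Ccnd1, with a log2 fold change of 0.02 (adjusted p = 0.935).

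Ccnd1 also differed between libraries of 1 genotype. WT replicate 1, without Y-linked transcripts, was at 183.8 CPM and the other WT libraries were near 45, while Mcl1Δhep Sting1-/- replicate 1, with Y-linked transcripts, was at 187.7 CPM and the other libraries of that genotype were above 418. With Y-linked expression as a term beside genotype, the test of which was added after the data were seen, Ccnd1 was 3.19-fold higher in the libraries without Y-linked transcripts (log2 difference 1.67 in size, standard error 0.22, adjusted p = 0.00315, edgeR), ranking at position 42 of the tested genes, of which 1.01% were called. None of the other 7 tested members was called for this term (adjusted p from 0.513 for Ccnd2 to 0.990 for Cdkn1b). In the same fit the Ccnd1 difference between Mcl1Δhep and WT livers was smaller, with a log2 fold change of 1.22 (adjusted p = 0.0151).

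In the 9 libraries without Y-linked transcripts, a subset chosen after the data were seen, the Ccnd1 levels fell in 2 ranges. The 1 remaining WT library and the 3 Sting1-/- libraries lay between 176.0 and 285.4 CPM, and the 5 Mcl1-deleted libraries lay between 343.7 and 515.1. The share of all tested genes that separate in this way was not determined. The libraries left out held the lowest Ccnd1 levels of their genotypes. A fit to these 9 libraries, in which the lone WT library is assumed to vary like the other groups, gave a log2 fold change of 0.98 for Mcl1 deletion with intact Sting1 (adjusted p = 0.195) and 0.97 without Sting1 (adjusted p = 0.286). Averaged over both Sting1 backgrounds it was 0.98 (adjusted p = 0.0452), so Ccnd1 was then the 1 member called, among 363 of 16222 genes. The difference between the deletion effects with and without Sting1 was -1.35 on the log2 scale with all 12 libraries and -0.02 with these 9, and neither was called.

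Ccnd2 (ENSMUSG00000000184, chr6:127102125-127129156, minus strand) and Ccnd3 (ENSMUSG00000034165, chr17:47815767-47910624, plus strand) encode the remaining D-type cyclins. Ccnd2 lay between 11.5 and 17.7 CPM and Ccnd3 between 17.9 and 27.5 CPM over the 12 libraries, with the groups overlapping in each comparison. Against WT livers, Mcl1Δhep livers differed by a log2 fold change of 0.02 for Ccnd2 (interval -0.39 to 0.43, adjusted p = 0.944) and of 0.01 for Ccnd3 (interval -0.34 to 0.36, adjusted p = 0.973). Both signs turned in some alternatives, 5 of 22 for Ccnd2 and 6 of 22 for Ccnd3. Both intervals ended below 0.86, the lower end of the interval of Ccnd1 in the fit to all 12 libraries. The Ccnd1 value itself was smaller with Y-linked expression as a covariate (1.22) and in the libraries without Y-linked transcripts (0.98).

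A window of 250 bases before the canonical transcript of Ccnd3 and of Ccne1 is shown because Ccne1 rose in Mcl1Δhep livers and Ccnd3 was not called, and because E2F factors act at such promoters. They were read from GRCm39 (chr17:47904099-47904348, plus strand, for Ccnd3 and chr7:37807074-37807323, minus strand, for Ccne1) and end 15 and 36 bases before the canonical start in GENCODE vM39, each the nearest such window free of exons of its own gene. Other annotated transcripts of both genes start farther upstream. Capitals mark a 7-letter E2F core, any of TTTCCCGC, TTTGGCGC, TTTCGCGC, and TTTGCCGC without its first T, on either strand.
Ccnd3: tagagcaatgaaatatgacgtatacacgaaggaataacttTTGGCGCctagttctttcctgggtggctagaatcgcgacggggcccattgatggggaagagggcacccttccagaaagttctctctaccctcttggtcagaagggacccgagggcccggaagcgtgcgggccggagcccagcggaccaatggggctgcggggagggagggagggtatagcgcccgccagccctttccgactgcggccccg
Ccne1: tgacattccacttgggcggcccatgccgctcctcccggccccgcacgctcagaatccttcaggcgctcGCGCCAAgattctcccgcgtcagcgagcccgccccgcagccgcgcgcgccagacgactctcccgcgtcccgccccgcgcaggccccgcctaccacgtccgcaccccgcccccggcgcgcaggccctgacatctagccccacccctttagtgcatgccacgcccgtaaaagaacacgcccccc
The core stood in the windows of Ccnd3 (positions -210 to -204 from the window's end) and Ccne1 (-182 to -176), and in 8.17% of the windows of all 21770 protein-coding genes. The full 8-letter forms, which contain it, stood in 2.22% of all windows and in that of Ccnd3, but not in that of Ccne1. No letters of either kind were in the windows of Ccnd2, Ccne2, Cdkn2a, Cdkn2b, Cdkn2c, and Cdkn1b. The windows of Ccne2 and Cdkn2c end 258 and 343 bases before the canonical start, so the bases between were not searched. These searches were chosen after the members' differences were known.

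Ccne1 (ENSMUSG00000002068, chr7:37797404-37808264, minus strand) and Ccne2 (ENSMUSG00000028212, chr4:11190303-11204947, plus strand) encode cyclins E1 and E2. Ccne1 measured 1.16, 1.87, and 2.05 CPM in WT livers and 2.85, 6.85, and 7.87 CPM in Mcl1Δhep livers. Ccne2 measured 1.74, 1.93, and 2.21 CPM in WT livers and 2.81, 6.88, and 7.97 CPM in Mcl1Δhep livers. For both genes the groups did not overlap, and Mcl1Δhep replicate 1 stood well below the other libraries of its group. The log2 fold change was 1.76 for Ccne1 (standard error 0.49, adjusted p = 0.0282) and 1.56 for Ccne2 (standard error 0.38, adjusted p = 0.0165). Replicates 2 and 3, the higher ones, were those with 2.56 and 1.43% of small structured RNAs. With the share of these RNAs as a covariate the log2 fold changes were 0.76 for Ccne1 (adjusted p = 0.535) and 0.58 for Ccne2 (adjusted p = 0.505). Without replicates 2 and 3, which leaves Mcl1Δhep replicate 1 alone, they were 0.74 for Ccne1 and 0.51 for Ccne2. Without replicate 3 only, the library with muscle transcripts, Ccne1 was at 1.49 and not called (adjusted p = 0.0762, edgeR). Ccne2 shares 15.2% of its exon bases with Ints8 on the opposite strand, which had a log2 fold change of -0.29 (adjusted p = 0.167). No single gene overlapped more than 7.97% of the exon bases of any member other than Ccnd1 and Ccne2.

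Without Sting1, the E-type cyclins had smaller differences in the fit to all 12 libraries. Ccne1 measured 2.07, 0.82, and 2.44 CPM in Sting1-/- livers and 2.11, 3.31, and 5.97 CPM in Mcl1Δhep Sting1-/- livers. Ccne2 measured 2.04, 1.75, and 2.29 CPM in Sting1-/- livers and 2.04, 4.90, and 3.503 CPM in Mcl1Δhep Sting1-/- livers. The groups overlapped for both genes, through replicate 1 of the Mcl1Δhep Sting1-/- libraries. The log2 fold change was 1.07 for Ccne1 (interval 0.02 to 2.13, adjusted p = 0.429) and 0.77 for Ccne2 (interval -0.04 to 1.58, adjusted p = 0.477). The test of the difference between the deletion effects gave -0.68 for Ccne1 (adjusted p = 0.658) and -0.79 for Ccne2 (adjusted p = 0.499).

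Cdkn2c (ENSMUSG00000028551, chr4:109517957-109524386, minus strand), the gene of the CDK4 and CDK6 inhibitor p18INK4C, was the member whose call depended least on single libraries. It measured 7.47, 5.43, and 4.13 CPM in WT livers and 13.8, 12.3, and 18.6 CPM in Mcl1Δhep livers. In livers without Sting1 it measured 8.53, 8.92, and 7.31 CPM with intact Mcl1 and 14.3, 16.8, and 11.7 CPM with Mcl1 deleted. In both backgrounds every Mcl1-deleted library was above every library with intact Mcl1. Groups without overlap, in either direction, were found for 33.3% of the tested genes with Sting1 and 22.3% without it. The log2 fold change was 1.38 with Sting1 (standard error 0.23, interval 0.88 to 1.88, adjusted p = 0.00339) and 0.79 without it (standard error 0.23, interval 0.29 to 1.28, adjusted p = 0.159). The second passed with DESeq2 (0.80, adjusted p = 0.0449). Averaged over both backgrounds Cdkn2c rose 2.12-fold (log2 fold change 1.08, adjusted p = 0.00127). In the 9 libraries without Y-linked transcripts the averaged log2 fold change was 0.88 (adjusted p = 0.0584).

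Cdkn2b (ENSMUSG00000073802, chr4:89223204-89229276, minus strand), which encodes the INK4 inhibitor p15INK4B, was barely detected, with 2 to 15 counts per library. It measured 0.21, 0.12, and 0.17 CPM in WT livers and 0.29, 0.34, and 0.44 CPM in Mcl1Δhep livers. These groups did not overlap, but at this depth the log2 fold change of 0.89 had an interval of -0.10 to 1.87 (adjusted p = 0.174). Sting1-/- livers alone spanned 0.05 to 0.36 CPM.

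Cdkn2a (ENSMUSG00000044303, chr4:89192708-89212890, minus strand) lies next to Cdkn2b and encodes p16INK4A and p19ARF from transcripts with different first exons, which a count per gene cannot separate. It had 1, 1, and 4 counts in the WT libraries, 3, 2, and 0 in Mcl1Δhep, 1, 1, and 0 in Sting1-/-, and 3, 1, and 4 in Mcl1Δhep Sting1-/-, 21 in all. No group stood out, and no fold change is given. The counts of 0 allow up to 3 counts, or 0.0949 CPM in Mcl1Δhep replicate 3 and 0.0724 CPM in Sting1-/- replicate 3, a limit that covers counting error only. A difference of Cdkn2a between groups was not detectable at this depth.

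Cdkn1b (ENSMUSG00000003031, chr6:134897364-134902476, plus strand) encodes p27KIP1, which is regulated largely through degradation of the protein. It measured 18.9, 20.2, and 17.7 CPM in WT livers and 18.7, 27.5, and 28.3 CPM in Mcl1Δhep livers. Replicate 1 of the Mcl1Δhep libraries lay within the WT range and the others lay above it. The log2 fold change was 0.39 (interval 0.03 to 0.75, adjusted p = 0.112). Without replicate 1 it was 0.55 (adjusted p = 0.00833), without replicates 2 and 3, the libraries high in small structured RNAs, it was -0.02 (adjusted p = 0.958), and with the share of these RNAs as a covariate it was 0.08 (adjusted p = 0.865). Sting1-/- livers spanned 15.0 to 19.3 CPM and Mcl1Δhep Sting1-/- livers 18.03 to 20.6 CPM, with a log2 fold change of 0.19 (adjusted p = 0.773).

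Across the remaining comparisons, 0 of the 8 tested members were called between Mcl1Δhep Sting1-/- and Sting1-/- livers, in which 0.803% of all tested genes were called. At an unadjusted p under 0.05, Ccne1 and Cdkn2c passed, as did 11.3% of all tested genes, and DESeq2 called 1, Cdkn2c. Averaged over both Sting1 backgrounds, which uses the same libraries again, Mcl1 deletion gave calls for the 4 genes named above, where 16.7% of tested genes were called, with log2 fold changes of 1.33 for Ccnd1 (adjusted p = 0.0276), 1.42 for Ccne1 (adjusted p = 0.0165), and 1.16 for Ccne2 (adjusted p = 0.0126). The averaged call of Ccnd1 was lost in 8 of 12 fits that left out 1 library, with adjusted p up to 0.0722, and those of the other 3 genes in 0 of 12. Between Mcl1Δhep Sting1-/- and Mcl1Δhep livers, edgeR called 0 members and 0% of tested genes, with 3098 genes at an unadjusted p under 0.05 and 663 by DESeq2. The members nearest to a call there were Ccne2 (log2 fold change -0.74, adjusted p = 0.275) and Cdkn1b (-0.33, adjusted p = 0.278), and Ccnd1 stood at 0.03 with an interval of -1.07 to 1.13. Without both Mcl1Δhep libraries high in small structured RNAs, the sign turned for Ccne2 (0.31) and Cdkn1b (0.08).

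Between Sting1-/- and WT livers edgeR likewise called 0 members and 0% of tested genes, with 821 genes at an unadjusted p under 0.05 and 51 by DESeq2. The largest member difference was that of Ccnd1, with a log2 fold change of 1.38 (unadjusted p = 0.0199, adjusted p = 0.813, edgeR). Without WT replicate 1, the WT library without Y-linked transcripts, it was 2.40 (adjusted p = 0.0455), and among the 9 libraries without such transcripts it was 0.38. The interaction of Mcl1 and Sting1 genotype was called for 0 members and 0% of tested genes, with 2165 genes at an unadjusted p under 0.05 and 170 by DESeq2, so a dependence of any member on Sting1 was not shown. Its largest member value was -1.35 for Ccnd1 (interval -2.91 to 0.21, adjusted p = 0.399).

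**Figure D3:**
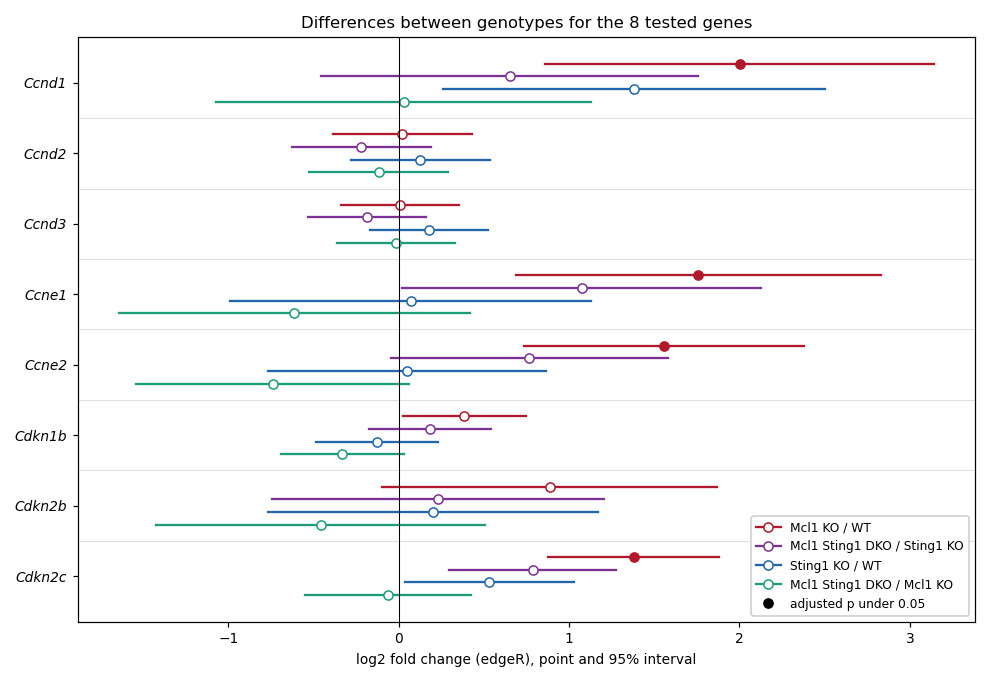
Log2 fold changes with 95% intervals (x axis) of the 8 tested genes (y axis) in 4 comparisons, with filled points for an adjusted p under 0.05. Filled points were those of Ccnd1, Ccne1, Ccne2, and Cdkn2c between Mcl1Δhep (Mcl1 KO) and WT livers, and the intervals of Ccnd2 and Ccnd3 crossed 0 in each comparison.

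The order of the genotypes differed between the genes. Ccnd1 had its lowest mean in WT livers (91.3 ± 80.2 CPM, mean ± SD, n = 3 in each group) and higher means in Sting1-/- (237.9 ± 56.1), Mcl1Δhep (365.8 ± 37.0), and Mcl1Δhep Sting1-/- livers (373.7 ± 168.2). The last pair overlapped, and Sting1-/- livers overlapped both WT and Mcl1Δhep Sting1-/- livers. Cdkn2c had the same lower pair, 5.67 ± 1.68 in WT and 8.25 ± 0.84 in Sting1-/- livers, which overlapped, and the same overlapping upper pair, 14.3 ± 2.57 in Mcl1Δhep Sting1-/- and 14.9 ± 3.27 in Mcl1Δhep livers. Ccne1 was alike in WT (1.69 ± 0.47) and Sting1-/- livers (1.77 ± 0.85), and had higher means in Mcl1Δhep Sting1-/- livers (3.79 ± 1.97), which overlapped Sting1-/- and Mcl1Δhep livers, and in Mcl1Δhep livers (5.86 ± 2.65). Ccne2 followed the order of Ccne1, with 1.96 ± 0.24, 2.03 ± 0.27, 3.48 ± 1.43, and 5.89 ± 2.72 CPM, and its Mcl1Δhep Sting1-/- libraries overlapped every other group.

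Among the partners of these genes, the other CDK inhibitors moved in the same comparison. Cdkn1a, which encodes p21CIP1, rose from 0.356 to 0.495 CPM in WT livers to 2.47 to 11.2 CPM in Mcl1Δhep livers (log2 fold change 3.75, adjusted p = 0.00313) and was not called without Sting1 (2.48, adjusted p = 0.0795). Cdkn2d, the gene of p19INK4D, rose with a log2 fold change of 1.08 (adjusted p = 0.0324), and Cdkn1c (p57KIP2) was at 0.80 (adjusted p = 0.172). These inhibitors thus gave 2 calls of 3. Of the 7 genes for G1 kinases and their activating kinase, Cdk4 rose (0.72, adjusted p = 0.0123), while Cdk6 was at -0.17 and Cdk2 at -0.02, neither called.

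The counts for the lists stand beside the 20.2% of all tested genes called in this comparison, to which the shares of the pocket protein and E2F genes and of the Ink4a-Arf regulators were near.

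Of 13 pocket protein and E2F genes, 2 rose and 1 fell in Mcl1Δhep livers. Rbl1 (p107) rose with a log2 fold change of 1.31 (adjusted p = 0.00878), and the repressor E2f7 rose with 2.08 (adjusted p = 0.0127). Rbl2 (p130), the pocket protein of resting cells, fell by 0.93 (adjusted p = 0.00229). Rb1 was at -0.53 (adjusted p = 0.143). E2f1 was at 0.96 (adjusted p = 0.0819), and passed in the averaged effect (1.03, adjusted p = 0.0193).

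Of 12 genes for the turnover of p27 and G1 cyclins, 2 rose and 2 fell. Skp2, the F-box protein that targets p27 for degradation, and its cofactor Cks1b rose with log2 fold changes of 1.02 (adjusted p = 0.0179) and 1.20 (adjusted p = 0.0426). Fbxo31, an F-box gene whose product targets cyclin D1, fell by 0.75 (adjusted p = 0.0225), and Gsk3b was the other that fell. Of 19 Polycomb and other regulators of the Ink4a-Arf locus, 3 rose, namely Id1 (1.88, adjusted p = 0.00878), the methyltransferase Ezh2 (1.12, adjusted p = 0.00267), and Ets2 (0.79), and 2 fell, the Polycomb gene Cbx7 (-0.87, adjusted p = 0.0402) and Dmtf1 (-0.47). The locus itself, Cdkn2a and Cdkn2b, gave no call.

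The later cyclins and proliferation markers were the list with most calls, 15 of 17 with Sting1 and 9 of 17 without it, all higher, and 17 of 17 in the averaged effect. Their median log2 fold changes were 1.73 and 1.70, against medians of -0.005 and -0.009 over all tested genes. Ccnb1 and Ccnb2, the B-type cyclins of mitosis, rose with 4.20 (adjusted p = 0.00276) and 4.07 (adjusted p = 0.00214) in Mcl1Δhep livers, and the S-phase cyclin Ccna2 rose with 3.39 (adjusted p = 0.00549). Mki67 rose with 2.86 (adjusted p = 0.0127) and had 2.67 without Sting1 (adjusted p = 0.0852). In the 9 libraries without Y-linked transcripts 0 of these genes were called in either comparison, with medians of 1.77 and 1.83, and 10 were called in the averaged effect. The 9 calls without Sting1 fell to 0 when any of the 3 Sting1-/- libraries or Mcl1Δhep Sting1-/- replicate 1 or 2 was left out. Those fits called 1 to 3 of all tested genes, against 121 with all 12 libraries. Without both Mcl1Δhep libraries high in small structured RNAs 7 of them were called with Sting1.

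Of 13 tested genes for hepatocyte mitogens and their receptors, 0 rose and 4 fell, Egfr by 1.61 (adjusted p = 0.0284), Lgr4 by 1.19 (adjusted p = 0.00333), Met by 1.09 (adjusted p = 0.00897), and Tgfa by 0.61 (adjusted p = 0.0411). Of 9 other cyclins of quiescence and transcription, 1 was called, Ccnt2, which fell by 0.62 (adjusted p = 0.0143). Among 22 alternatives, Gsk3b and Dmtf1 were called in 3, Tgfa in 6, Cbx7 in 8, Cks1b and Ets2 in 11, and Cdkn2d in 12, and the other genes named here from the lists as called in Mcl1Δhep livers were called in at least 15. In the 9 libraries without Y-linked transcripts no gene of these lists was called between Mcl1Δhep and WT livers. The medians of the lists other than the later cyclins lay between -0.16 and 1.08 with Sting1.

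**Figure D4:**
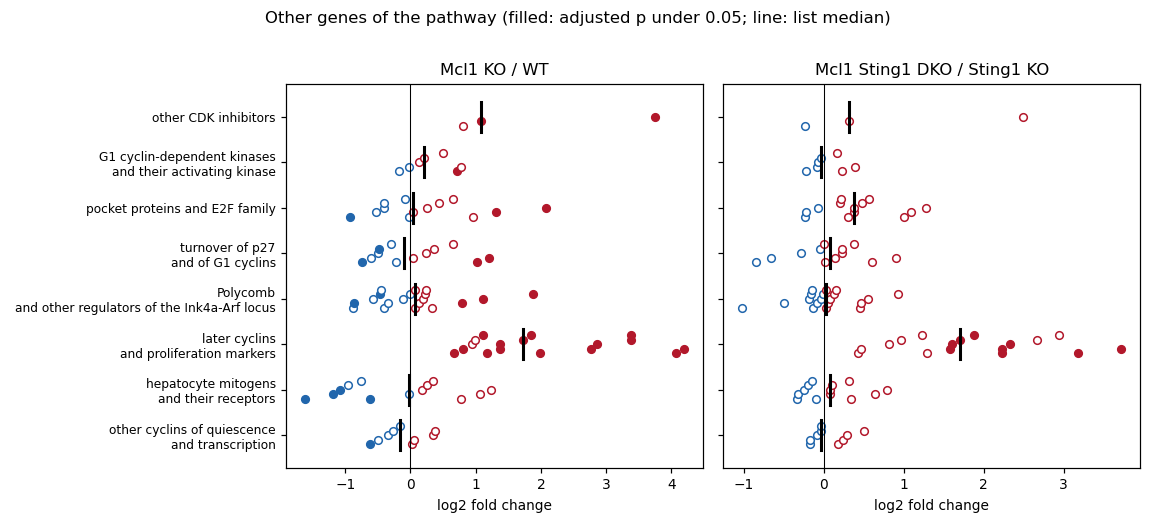
Log2 fold changes (x axes) of the other genes of the pathway by list, between Mcl1Δhep and WT livers (left) and between Mcl1Δhep Sting1-/- and Sting1-/- livers (right), with 1 point per gene, filled for an adjusted p under 0.05, and a black line at each list's median. The later cyclins and proliferation markers lay to the right of 0 in both panels.

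Markers of other liver cells moved in the same comparison, and their part in the differences above was not tested. Called higher in Mcl1Δhep than in WT livers were 3 of 7 macrophage markers, whose summed level was 400.2 to 617.6 CPM in WT and 630.3 to 746.5 in Mcl1Δhep livers, and 3 of 6 stellate cell markers, with 348.7 to 506.6 and 565.4 to 603.3 CPM. The same held for all 3 tested neutrophil markers (2.64 to 4.19 and 8.76 to 20.5 CPM summed) and for 3 of 6 tested T and NK cell markers (2.67 to 3.27 and 4.90 to 7.99 CPM). Of all tested genes, 20.2% were called in this comparison. No B cell, endothelial, or cholangiocyte marker was called, and of the hepatocyte markers Cyp2e1 was lower.

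**Figure D5:**
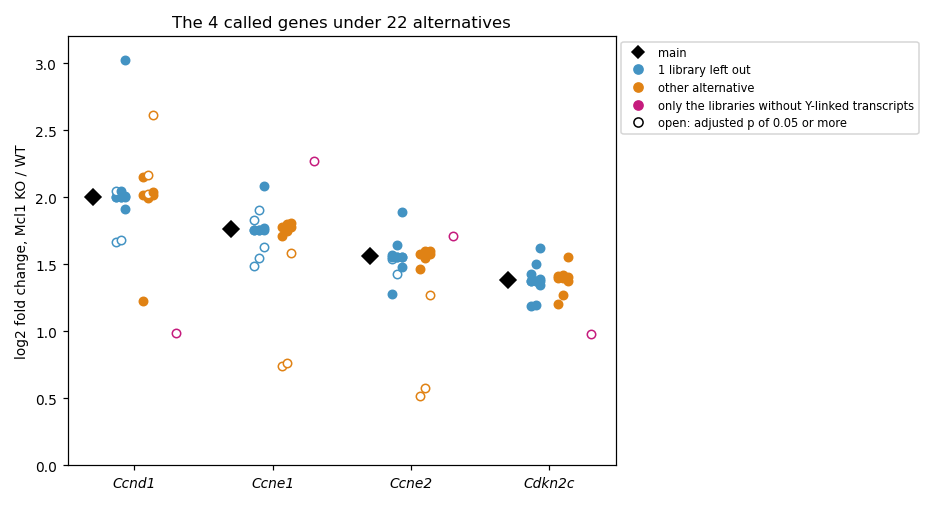
Log2 fold change between Mcl1Δhep and WT livers (y axis) of the 4 called genes as reported (diamonds) and under 22 alternatives (circles), filled for an adjusted p under 0.05. All points lay above 0, and the single alternative in which Cdkn2c was not called used the 9 libraries without Y-linked transcripts.

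The 4 calls between Mcl1Δhep and WT livers differed in how far they rested on single libraries. Of 22 alternatives, Cdkn2c was called in 21, Ccne2 in 16, Ccnd1 in 15, and Ccne1 in 13, and the direction of these 4 genes was the same in all 22. Without Mcl1Δhep replicate 2, 1 member and 1238 of 15304 tested genes were called, and without WT replicate 2, 1 member and 1233 of 15427. Without WT replicate 3, 2 members and 1596 of 15463 tested genes were called. With all 12 libraries, 3050 of 15070 were. In the 9 libraries without Y-linked transcripts 0 members were called with 1 WT library left, and 4 of all tested genes were, with log2 fold changes of 2.27 for Ccne1, 1.71 for Ccne2, and 0.98 for Cdkn2c.

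As a description over the 12 libraries, which share genotype and the library features above, the log2 CPM of Ccnd1 was most like those of Cyp4a31 (Pearson r = 0.936), Paqr4 (0.918), and Gm42987 (0.912) among 12530 other genes with at least 1 CPM on average. That of Cdkn2c was most like Cyp4f16 (0.950), Tspan15 (0.938), and Fignl1 (0.936). Ccne1 was most like Nudt5 (0.933), Ftl1, and Gemin6. Cdkn1b was most like Fundc2 (0.948), Rangrf, and Zcchc17, Ccnd2 like Gcnt2 (0.909), Tent5a, and Sall1, Ccnd3 like Ubqln4 (0.907), Dnajb1, and Pogk, and Cdkn2b like Pawr (0.876), H2-Aa, and H2-Ab1. Among the members, Ccne1 and Ccne2 were most alike (0.896), and Ccnd1 and Cdkn2c reached 0.820.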

How the data were processed

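Total RNA of 12 mouse livers was sequenced by the authors on an Illumina instrument. What the authors deposited are unnormalized counts, the whole number of reads assigned to each Ensembl gene. The submitters' processing notes name STAR and featureCounts with GRCm39, and the annotation release and strand setting are not given in the sources used here. Labels and methods text give different kits for RNA extraction.

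From the counts, CPM with TMM factors and tests were computed with edgeR 4.0.16 in R 4.3.3 (the functions glmQLFit and glmQLFTest on all 12 libraries without a covariate, after filterByExpr with genotype as the group, and a prior count of 2), with Benjamini-Hochberg adjustment over 15070 genes and a threshold of 0.05. DESeq2 1.42.0 was an alternative. TPM used summed exon lengths of GENCODE vM39, which lacks 1018 of the identifiers. Confidence intervals are at 95%. In counts simulated for the comparison of Mcl1Δhep with WT livers, edgeR called all 200 genes given a log2 change of 2 and 10 others out of 15139, and DESeq2 all 200 and 38 others out of 14536. The simulation gave every gene the same spread between libraries (dispersion 0.0699). Of the called members, Ccnd1 (0.192), Ccne1 (0.171), and Ccne2 (0.108) varied more and Cdkn2c (0.0428) less, so recovery of more variable genes was not tested. Python 3.11.15 read the promoter windows and drew the figures.

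The members and the lists were chosen with earlier results of these data known. The genes named are the members in every comparison, Mcl1 and Sting1, up to 3 called genes of each list with the largest change between Mcl1Δhep and WT livers or in the averaged effect, 10 genes named in any case (Cdkn1a, Cdkn2d, Cdk4, Cdk6, Cdk2, Rb1, E2f1, Skp2, Ccna2, and Mki67), and the 3 genes most like each member, of which those for Ccne2 are not reported here. Cdkn1c, Ets2, Dmtf1, Gsk3b, Tgfa, Xist, and the genes overlapping members were named after their values were seen. Each pair of libraries of a genotype differed by more than sampling noise (chi-square per degree of freedom over genes of 43.2 to 314). Alternatives were other normalizations, filters, and tests, covariates, the replicate number as a block, and each library left out in turn, and 2 subsets of libraries and the test of the Y-linked term were added after the data were seen. Protein sequences were not used here.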

Additional observations from a re-analysis of the deposited data

How the results depend on the processing

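Between Mcl1Δhep and WT livers, 4 members were called, and 2 were with Y-linked expression as a covariate, 1 with the small structured RNA share as a covariate, 0 in the libraries without Y-linked transcripts, and 1 without both Mcl1Δhep libraries high in small structured RNAs. For Mcl1 deletion averaged over both Sting1 backgrounds, where 4 were called, these last 3 settings gave 2, 1, and 1. Calls over all 15070 tested genes fell as well. Between Mcl1Δhep and WT livers they were 1531 with the Y-linked covariate, against 3050 without it. In the averaged effect they were 1562 with the small structured RNA share as a covariate, against 2522. DESeq2 called 1 member between Mcl1Δhep Sting1-/- and Sting1-/- livers, where edgeR called 0. Leaving out 1 library at a time gave 1 to 5 called members between Mcl1Δhep and WT livers (5 without Mcl1Δhep replicate 1), 3 to 5 in the averaged effect, 0 to 2 between Mcl1Δhep Sting1-/- and Mcl1Δhep livers (2, Ccne2 and Cdkn1b, without Mcl1Δhep replicate 1), and 0 to 1 between Sting1-/- and WT livers (1, Ccnd1, without WT replicate 1). In the other 2 comparisons it gave 0. The cause of these changes was not tested. With DESeq2's size factors, another filter, or DESeq2 itself, 4 members were called between Mcl1Δhep and WT livers and in the averaged effect. Of 1031 member values under an alternative, 986 kept their side of the threshold, 39 lost a call, 6 gained one, and 0 called values turned. Most of the 1031 belong to results that were not called and so had no call to lose. All 39 losses were among the 4 called genes, between Mcl1Δhep and WT livers or in the averaged effect. Over all genes, calls between Mcl1Δhep and WT livers ran from 1233 to 5232 when 1 library was left out, and 388 were called with the small RNA share as a covariate and 4 in the libraries without Y-linked transcripts. Between Mcl1Δhep Sting1-/- and Sting1-/- livers, 121 genes were called with edgeR, 461 with DESeq2, and 1 to 249 with 1 library left out. The later cyclins and proliferation markers gave 10 to 17 calls between Mcl1Δhep and WT livers and 0 to 14 without Sting1 when 1 library was left out. With the replicate block, 4 members were called between Mcl1Δhep and WT livers, as without it, and 2591 genes in place of 3050. Same-numbered libraries of different genotypes did not deviate together (18 pairs, r from -0.541 to 0.251, 3 above 0.1), and 4 of 12 libraries correlated best with their own number, so the numbers were not taken as pairs. In TPM in place of CPM, 1 of 32 member ratios moved by more than the spread between replicates. With 3 libraries a group, the intervals of Ccnd1, Ccne1, and Ccne2 spanned more than a log2 unit, and Cdkn2a and Cdkn2b were limited by counts.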
